A study of Caenorhabditis elegans with 2 samples.

Results

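A set of 278 regions bound by tagged SOX-4 lay between or beside protein-coding genes that are transcribed away from each other. They were the autosomal peaks of the authors' optimal list whose summit fell from 1000 bp upstream to 200 bp downstream of the annotated 5′ end of at least 1 coding gene on each strand. The optimal list held 1497 peaks, 1182 of them on autosomes, and came from a pooled list of 30000 regions. Per the file notes it was thresholded on the irreproducible discovery rate, a measure of how well ranks repeat between replicates. Its peaks were also the 1497 pooled regions of highest signal, so presence in the list follows pooled signal and is not in itself a sign that both replicates ranked a region high. The other 778 autosomal regions of the pooled list that met the same position rule, but were not in the optimal list, served for comparison. Chromatin was precipitated with an anti-GFP antibody from whole hermaphrodite L1 larvae of strain OP517, genotype unc-119(tm4063) III; wgIs517, which stably expresses SOX-4 with a GFP-FLAG tag at its C-terminus. Worms were synchronized by bleaching and starvation as L1 larvae and taken 6 hours later, in 2 biological replicates of 1 group. Both replicates carried the tagged protein and the unc-119 allele. An untagged sample was not analysed here, and with whole animals a region bound in few cells cannot be told apart from one bound weakly in many.

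Sox proteins bind DNA through an HMG box, which fits the minor groove at cores of the kind ACAAT and bends the helix. In a divergent promoter, a pair of genes on opposite strands share the sequence between their 5′ ends, and such pairs are common in the compact genome of C. elegans. Many C. elegans transcripts are trans-spliced, a step that replaces the original 5′ end of the RNA with a spliced leader, so an annotated 5′ end can lie downstream of the position where transcription starts. The regions compared below are not biological replicates, and every 95% interval is exact and covers the counting of regions or genes only.

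Sequence around the summits is shown first, because letters at the summit are among the features in which the peaks stood apart from other divergent promoters. Each window runs 50 bp to either side of the summit on ce11, plus strand, 5′ to 3′, from the genome of RefSeq. Capitals mark, on either strand, any of 6 words of 6 letters, named with their shares further on, that were picked for the largest excess in share at the peaks over the other divergent regions. The first 5 windows are those of the strongest peaks off the first chromosome. F55A11.1/syx-5 had the lowest GC content among the 20 strongest, and rpl-36A/nuo-1, which is not in the optimal list, had the strongest of the remaining regions off that chromosome.
K01G5.10/tasp-1 (chrIII:10759203-10759303, + strand): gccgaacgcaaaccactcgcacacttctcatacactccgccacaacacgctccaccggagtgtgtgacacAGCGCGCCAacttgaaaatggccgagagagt
akap-17A/C07H6.2/lig-4 (chrIII:7520799-7520899, + strand): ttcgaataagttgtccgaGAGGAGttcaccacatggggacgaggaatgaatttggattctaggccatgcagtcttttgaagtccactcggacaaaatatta
nhl-2/tag-340 (chrIII:4899852-4899952, + strand): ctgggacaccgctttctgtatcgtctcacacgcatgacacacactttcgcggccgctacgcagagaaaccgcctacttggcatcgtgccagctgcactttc
rpl-18A/Y17G9B.5 (chrIV:4750035-4750135, + strand): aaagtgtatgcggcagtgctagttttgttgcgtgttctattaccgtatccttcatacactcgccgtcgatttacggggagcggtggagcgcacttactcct
Y22D7AL.10/hsp-60 (chrIII:1619091-1619191, + strand): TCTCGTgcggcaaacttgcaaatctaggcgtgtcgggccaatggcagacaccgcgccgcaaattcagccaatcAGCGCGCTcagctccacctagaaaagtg
F55A11.1/syx-5 (chrV:11764538-11764638, + strand): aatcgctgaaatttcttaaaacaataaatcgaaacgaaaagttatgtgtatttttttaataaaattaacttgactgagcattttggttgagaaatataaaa
rpl-36A/nuo-1 (chrII:11097490-11097590, + strand): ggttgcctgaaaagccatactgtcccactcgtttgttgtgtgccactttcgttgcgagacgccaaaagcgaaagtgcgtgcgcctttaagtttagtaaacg
The tasp-1 window held AGCGCG and GCGCCA overlapping in a single run, and the hsp-60 window held AGCGCG and, at its edge, ACGAGA. The window of akap-17A, C07H6.2 and lig-4 held CTCCTC, while those of nhl-2 and rpl-18A held none of the 6 words.

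Peaks made up a larger share of the candidate regions at divergent promoters than elsewhere. Of 1056 autosomal divergent-promoter regions in the pooled list, 278 were in the optimal list, a share of 26.3% (23.7 to 29.1). Among 5619 regions at the promoter of coding genes on a single strand the share was 7.62% (6.94 to 8.34), and among 17362 regions outside coding promoters it was 2.74% (2.504 to 2.995). For all autosomal regions the share was 4.92%, and for the whole pooled list 4.99%. On X, 10 of 59 divergent-promoter regions were in the optimal list, 16.9% (8.44 to 29.0), an interval that reaches past the autosomal value. The order of the classes was the same at like distance from a gene. Where the summit lay less than 100 bp upstream of the nearest coding 5′ end, 36.7% of 218 divergent regions (30.3 to 43.5) and 10.4% of 537 single-promoter regions (7.97 to 13.3) were in the optimal list. From 100 bp to under 200 bp the shares were 37.0% and 15.5%, from there to under 300 bp 30.0% and 15.1%, and from 300 to 1000 bp 14.6% and 5.62%. These distance classes were compared after the data had been seen.

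**Figure D1:**
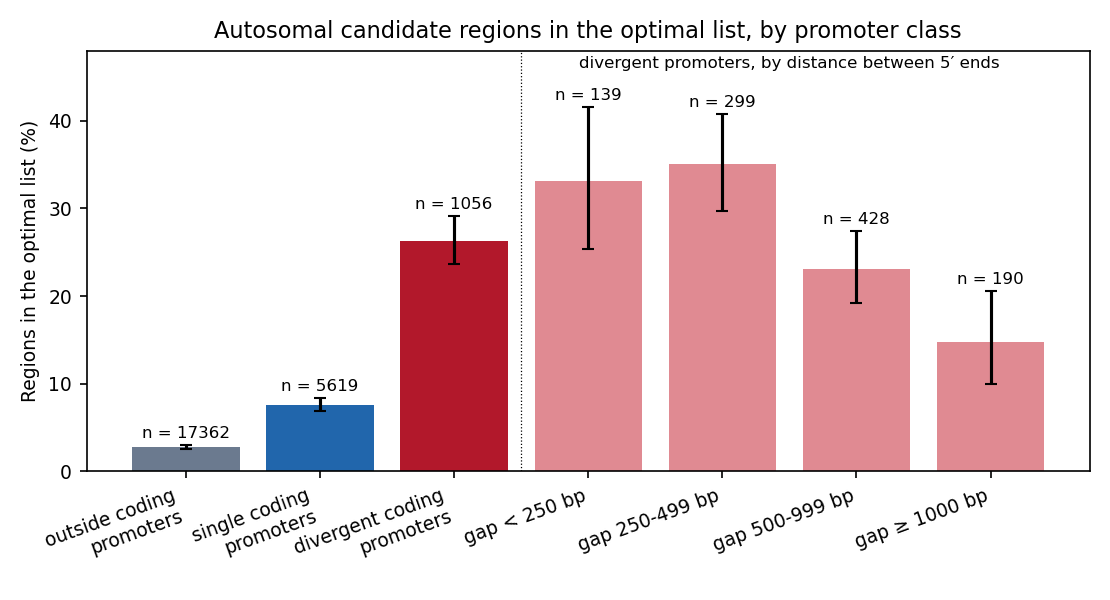
Share of pooled-list regions that are in the optimal list (%), by position class and, for divergent promoters, by gap length; bars give the share and lines the exact 95% interval, which covers counting only. Divergent promoters stand at 26.3%, against 7.62% for single promoters and 2.74% outside coding promoters.

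Among the divergent regions, the peaks had shorter gaps and lay between the genes more often. The distance between the nearest 5′ ends on the 2 strands had a median of 471 bp (432 to 516) at the peaks and 618 bp (590 to 641) at the other divergent regions. The middle 50% of the peaks spanned 298 to 716 bp. With the upstream window cut to 500 bp, the difference of these medians shrank from −147 to −14.5 bp, so this result rests on the window. Of regions with a gap under 250 bp, 33.1% (25.4 to 41.6) were in the optimal list, and of those from 250 to under 500 bp, 35.1% (29.7 to 40.8). For gaps from 500 to under 1000 bp the share was 23.1% (19.2 to 27.4), and for 1000 bp or more it was 14.7% (10.02 to 20.6). The longest gaps among the peaks were 1863 bp at ensa-1/K10C3.4, 1659 bp at mif-4/ipla-6 and 1482 bp at let-70/klc-1. At the other extreme, the 5′ ends of wrb-1 and Y50D4A.4 overlapped by 55 bp, written −55 in the gap length, those of Y54E10BR.2 and rpb-7, a subunit of RNA polymerase II, overlapped by 3 bp (−3), and those of F32D8.14 and F32D8.5 were 12 bp apart.

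The summit lay between the 5′ ends in 256 of 278 peaks, 92.1% (88.3 to 95.0), and in 594 of 778 other regions, 76.3% (73.2 to 79.3). In the remaining 22 peaks it lay inside the transcribed part of a gene or, for an overlapping pair, had no gap to lie in. Summits were a median of 146 bp from the nearer 5′ end, close to the 153.5 bp of the other regions, whereas the farther 5′ end was 309.5 bp (290 to 359) away at the peaks and 487 bp (465 to 523) at the others. Both ends were within 300 bp of the summit in 133 peaks (47.8%) and in 194 others (24.9%). The nearer end was on the plus strand in 147 peaks (52.9%), so neither strand was favoured by more than the counting error. Across the 278 peaks, all of them high in pooled signal by the choice of the list, Spearman's rho between signal and gap was −0.08. Their median signal was 88.0 for gaps under 250 bp and 94.3 from 250 to under 500 bp. It was 84.8 from 500 to under 1000 bp and 73.0 for 1000 bp or more. Only 1 peak had another optimal summit within 1000 bp, and no gene pair was hit by more than 1 peak. At 21 peaks 3 or more coding genes met the rule, and the 278 peaks together touched 578 coding genes.

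**Figure D2:**
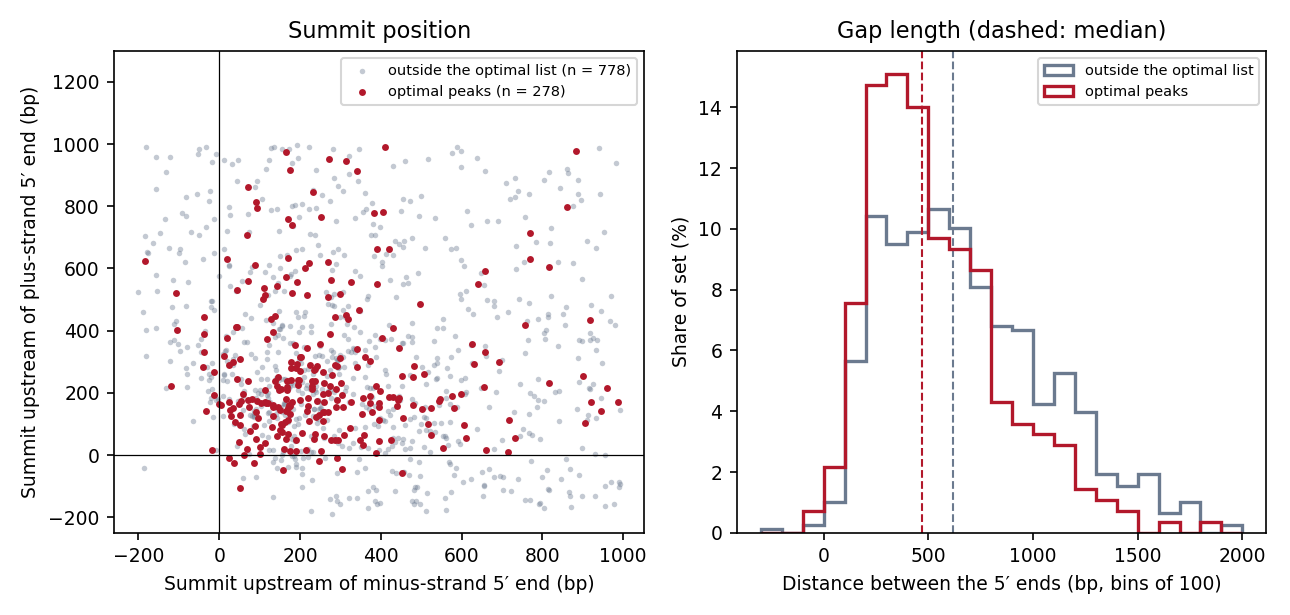
Left: distance (bp) from each summit upstream of the nearest plus-strand and minus-strand coding 5′ end, 1 point per region. Right: gap between the 5′ ends (bp, bins of 100) as a share of each set (%), dashed lines at the medians, 471 bp for the peaks and 618 bp for the other divergent regions.

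The strongest peak lay between K01G5.10 and tasp-1, which encodes a threonine aspartase, at chrIII:10759113-10759429. It had a pooled signal of 465.3, in the authors' arbitrary unit, and 226.5 in replicate 1 and 244.0 in replicate 2, ranks 12 and 15 of 30000. With regions of mitochondrial DNA left out, its ranks were 12 and 5. Its summit lay 54 bp upstream of tasp-1 and 731 bp upstream of K01G5.10. F56G4.6/wbp-4 followed at 431.6 (224.1 and 208.7). The peak of akap-17A, C07H6.2 and lig-4, the last a DNA ligase of end joining, had 428.3 (229.6 and 214.5) over chrIII:7520723-7520974, with its summit 4 bp from the nearest minus-strand end and 160 bp from the plus-strand end. nhl-2, an RNA-binding cofactor of microRNA silencing, shared with tag-340 a peak of 361.5 (163.1 and 200.1) in a gap of 1423 bp, far wider than the median. rpl-18A/Y17G9B.5 had 346.6 (175.1 and 173.1), Y22D7AL.10/hsp-60, the mitochondrial chaperonin, 328.7 (157.0 and 167.2), and rpl-15/K11H12.8 316.5 (147.5 and 170.1).

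The other 13 of the 20 strongest ran from 277.1 down to 205.3. F10E9.7/F10E9.5/F10E9.4 and W02H5.11/W02H5.19/W02H5.2 each involved more than 1 gene on a strand, at 277.1 and 253.2. ppcd-1/F25H9.7 had 255.9 with a gap of 15 bp, and E02H1.1/tag-124 239.5 with a gap of 128 bp. Several pairs joined a gene of translation to another gene: ifet-1, a repressor of translation, and rps-3A (225.3), iff-2, an eIF5A, and F54C9.14 (214.1), rpl-12 and lin-54, a subunit of the DREAM complex (212.7), and drr-2 and set-16, a histone H3 lysine methyltransferase (205.3). Genes of signalling and membrane traffic stood there too: F01D4.5/ced-5, a DOCK180 protein of cell engulfment (242.7), vps-51/lin-35, the worm's retinoblastoma protein (231.5), F55A11.1/syx-5, a syntaxin of the Golgi (224.6), and mig-5, a Dishevelled protein, paired with the chaperonin subunit gene cct-1 (206.8). gpap-1/scpr-1 had 221.5. Of the 20, 7 lay on chromosome III.

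Every one of the 278 peaks overlapped a region in each replicate's own list, against 568 and 617 of the 778 other regions. To compare ranks, the 1497 strongest regions of each replicate were taken, as many as the optimal list holds. Of the peaks, 245 (88.1%) were among these in replicate 1, 239 (86.0%) in replicate 2 and 212 (76.3%, 70.8 to 81.1) in both, with 6 in neither. Optimal peaks at single promoters were in both for 285 of 428 (66.6%, 61.9 to 71.0), and those outside coding promoters for 280 of 476 (58.8%, 54.3 to 63.3). The optimal list was itself derived from these replicates, so these values describe it and do not test it. By pooled signal, the 70 strongest peaks and the next 70 were all in both lists, then 53 of 69 (76.8%) and 19 of the last 69 (27.5%). Pooled signal had a median of 89.0 (82.9 to 94.4) at the peaks and 83.5 (77.3 to 90.8) at single-promoter optimal peaks.

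The replicates' signals rose and fell together across peaks, with Pearson's r of 0.75 and Spearman's rho of 0.73 on log2 signal over 278 peaks from the same lists. Among the other regions found in both lists the values were 0.50 and 0.37 over 436. The sets were parted by pooled signal, so their ranges differ by that choice and the correlations are not directly comparable. The highest replicate values among the other regions, 110.1 and 116.4, equal those of the F55A11.1/syx-5 peak, because neighbours can share a replicate's region. Median signal was 44.4 in either replicate, and the log2 ratio of replicate 2 to replicate 1 had a median of −0.03 and an SD of 0.54. The largest departures toward replicate 1 were nxf-1/C15H11.11, the mRNA export receptor, at 41.3 and 8.77 (log2 ratio −2.24), F22D3.4/flcn-1, folliculin, at 40.5 and 11.3 (−1.83), and simr-1/C06A5.3 at 62.1 and 22.9 (−1.44). Toward replicate 2 they were wrb-1/Y50D4A.4 at 9.37 and 39.6 (2.08), epc-1/Y111B2A.12 at 17.6 and 53.7 (1.61) and jmjd-4/mev-1, a succinate dehydrogenase subunit, at 20.8 and 51.1 (1.29). The lower rank of these pairs was far down the list of 30000 for nxf-1 (24922, replicate 2), wrb-1 (23151, replicate 1) and flcn-1 (14525, replicate 2), while for epc-1, jmjd-4 and simr-1 it was 4686, 2980 and 2294.

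**Figure D3:**
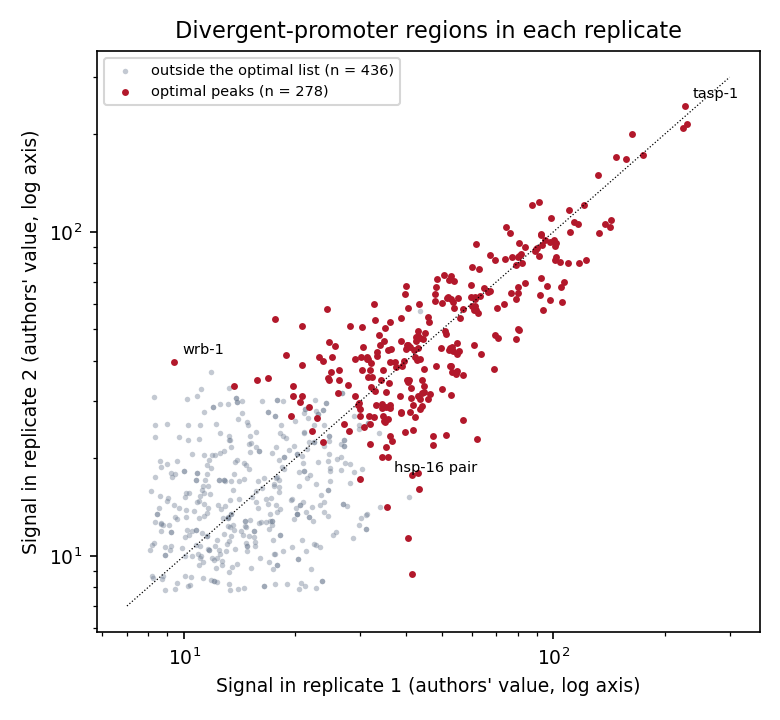
Signal of divergent-promoter regions in replicate 1 and replicate 2 (authors' value, both axes logarithmic), peaks and other regions in different colours, with 3 pairs labelled and equal signal as a dotted line. Peaks follow that line with a Pearson r of 0.75 on the log2 scale; the others crowd near the low end.

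At the boundary of the optimal list, membership followed the pooled signal. The weakest peaks were wrb-1/Y50D4A.4 at 51.51, spot-1/B0361.11 at 51.39 (27.2 and 25.6 in the replicates) and vbh-1/mrpl-17/Y54E10A.6 at 51.34 (27.9 and 24.3). Just outside stood mppa-1/Y71G12B.10 at 51.05 (18.5 and 29.9), rpl-36A/nuo-1 at 50.8 (40.6 and 15.2) and pbs-7/F39H11.1, with a proteasome subunit gene, at 50.4 (22.7 and 30.2). In replicate 1, rpl-36A/nuo-1 was above the peaks at spot-1 and vbh-1. The deposited −log10 q sat at its highest value in 118 peaks and in 0 of the other divergent regions. Width followed signal: 194 peaks (69.8%) had the full width of 396 bp, which every one of the other divergent regions had, and among the peaks Spearman's rho between signal and width was −0.71.

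Summits of the peaks were richer in G and C than other divergent promoter regions. Median GC content within 50 bp of the summit was 46.04% (44.6 to 47.5), and it was 33.7% (33.7 to 34.7) at the other divergent regions. It was not particular to divergent promoters: single-promoter optimal peaks had 45.5% and those outside coding promoters 43.6%, against 31.7% for single-promoter regions off the optimal list. Along the sequence the mean GC of the peaks reached 50.1% in the 20 bp bin at +10 and fell to 29.9% at −130 and 30.6% at +110, in windows on the plus strand. The 70 strongest peaks had a median of 48.5% and the 69 weakest 42.6%, and Spearman's rho between signal and GC over the 278 peaks was 0.26. Single peaks ranged from 14.9% at snx-13/snr-1 to 66.3% at abcf-2/T27E9.2/ant-1.1, and syx-5, among the 20 strongest, had 22.8%. Base composition was not tested as a source of the words described next.

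Among the 12 motifs searched on both strands, the Sox core ACAAT had overlapping intervals at peaks and other regions. It was present in 23.7% of them (18.9 to 29.2), in 26.9% of the other divergent regions (23.8 to 30.1) and in 28.6% of 17242 windows of the same length at autosomal coding promoters. AACAAT stood at 8.63%, 10.4% and 13.6%. GAGAGA was present in 14.7% of the peaks (10.8 to 19.5) and 7.58% of the others (5.82 to 9.67), with 8.93% of promoter windows. TATAAA went the other way, 7.19% (4.45 to 10.9) against 18.0% (15.4 to 20.9), with 19.6% of promoter windows, as did TTTCAG, the letters of a splice acceptor, at 10.4% against 18.9%, with 26.1%. The peaks were also split at GC contents of 42.6% and 49.5% into 3 classes of 90, 84 and 104 peaks. The other divergent regions in these classes numbered 590, 113 and 75. The share of TATAAA was 13.3% against 22.7% in the lowest, 7.14% against 3.54% in the middle and 1.92% against 2.67% in the highest. For GAGAGA the pairs in the same order were 10% and 5.25%, 15.5% and 13.3%, and 18.3% and 17.3%. For both motifs the intervals of peaks and others overlapped in every class, so no direction can be read within a class. Of the rest, CANNTG was in 37.1% of peaks and 34.2% of others (29.2% of promoter windows), TGATAA in 4.68% and 8.10% (12.8%), CACGTG in 3.24% and 2.57% (2.62%), GGGCGG in 5.04% and 4.11% (3.43%), TTCNNGAA in 4.68% and 6.94% (5.94%), TTCCCGC in 1.44% and 1.16% (1.07%) and GTAAACA in 1.08% and 2.31% (1.61%). AACAAT and ACAAT overlap, as do CANNTG and CACGTG. Single-promoter optimal peaks had shares close to those of the divergent ones, 26.4% for ACAAT and 16.8% for GAGAGA.

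Every word of 6 letters was then counted, and the 6 with the largest excess at the peaks are the ones in capitals above. Some AT-rich words differed by more in the other direction, such as TGAAAA, in 18.7% of the peaks and 37.3% of the others, and AAAATT, in 29.5% and 45.6%. AACGCG was in 19.8% of the peaks and 5.40% of the other divergent regions, AGCGCG in 18.7% and 4.76%, CTCCTC in 18.3% and 4.499%, GCGCCA in 18.0% and 3.98%, ACGAGA in 17.6% and 4.37%, and CGCCAG in 16.19% and 2.31%. In the promoter windows, which end at coding 5′ ends, they were in 2.16%, 1.47%, 4.43%, 1.34%, 4.79% and 1.15%. At least 1 of the 6 was present in 165 peaks, 59.4% (53.3 to 65.2), and in 161 others, 20.7% (17.9 to 23.7). At least 2 were present in 86 peaks (30.9%) and 28 others (3.60%). The words were chosen for this difference, so these shares are a description. In the 3 GC classes the shares with any word were 38.9% and 14.4%, 72.6% and 34.5%, and 66.3% and 49.3%. In the highest class the intervals overlapped (56.4 to 75.3 and 37.6 to 61.1). In the 50 bp bins on either side of the summit 37.1% and 38.1% of peaks held a word, and 5.40% to 14.0% in the bins farther out; the words were picked within 50 bp of these summits, so their position at the peaks is set by that choice. Single-promoter optimal peaks held any of them in 52.1%, so the words were no mark of divergent promoters. GCGCCAG, which joins a pair of these words, was in 38 peaks (13.7%) and 8 others (1.03%).

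**Figure D4:**
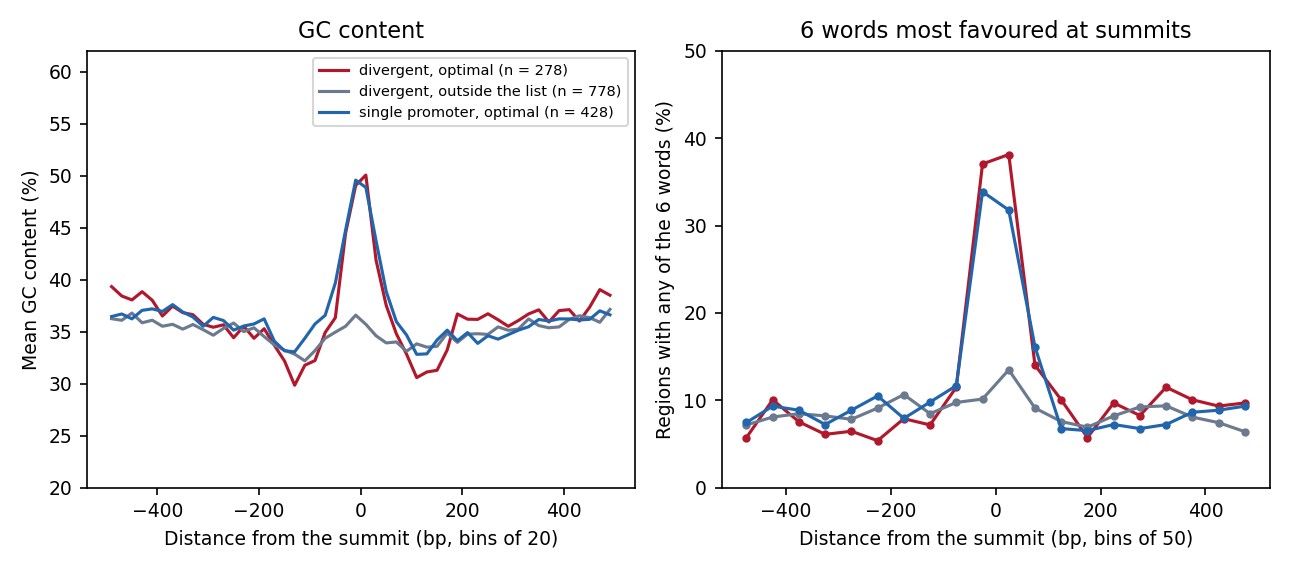
Left: mean GC content (%) by distance from the summit (bp, bins of 20). Right: share of regions (%) holding any of the 6 words, by distance from the summit (bins of 50), for the peaks, the other divergent regions and single-promoter optimal peaks. Mean GC of the peaks reaches 50.1% at the summit; the words reach 38.1% in the bins they were picked in.

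Lists of genes by role were read against 31.0%, the share of all coding genes with a divergent-promoter region that had a peak, 578 of 1866 (28.9 to 33.1). The lists were drawn by patterns in gene symbols, so they can miss genes of a role or hold others. Heat shock and chaperone genes and cytosolic ribosomal protein genes had more. Of 25 heat shock and chaperone genes with a divergent region, 19 had a peak, 76.0% (54.9 to 90.6), led by hsp-60 at 328.7, the cytosolic chaperonin genes cct-1 (206.8) and cct-8 (191.4), and the J-domain gene dnj-19 (182.2). Of 43 cytosolic ribosomal protein genes, 25 had one, 58.1% (42.1 to 73.0), led by rpl-18A (346.6), rpl-15 (316.5), rps-3A (225.3) and rpl-12 (212.7). Splicing factor genes had 13 of 24, 54.2%, with prp-19 at 185.6, sftb-6 at 93.6, sap-140 at 92.7 and prp-40 at 87.0. Their interval (32.8 to 74.4) did not cover 31.0%, but its low end overlapped the interval of all genes (28.9 to 33.1). With only the stronger 50% of the optimal list, chaperones stood at 56%, ribosomal proteins at 41.9% and splicing factors at 29.2%, beside 19.9% of all these genes. Splicing factors stood at 40% without replicate 1, beside 28.6% of all genes, but at 65% without replicate 2, beside 29.7%. With a window of 500 bp upstream they stood at 47.1%, beside 36.6%. The window with nothing downstream gave 61.9%, beside 33.6%, and transcript 5′ ends 53.8%, beside 30.3%.

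The other lists, C-type lectins apart, had intervals that covered 31.0%. Translation factors had 9 of 20, with iff-2 at 214.1, eef-2 at 175.1, eef-1G at 152.0 and eef-1A.1 at 114.4, and aminoacyl-tRNA synthetases 4 of 8, from ears-2 (173.6) and kars-1 (114.3) to mars-1 (69.2) and nars-1 (52.3). Subunits of RNA polymerase, TFIID and Mediator had 8 of 17 (47.1%), with mdt-19 at 162.8, mdt-26 at 118.7, taf-7.2 at 117.0 and taf-11.3 at 92.7. Nuclear pore and transport genes also had 8 of 17, with xpo-7 at 164.4, ran-5 at 101.3, npp-3 at 98.9 and npp-12 at 65.8. The vesicle traffic list had 13 of 31 (41.9%), with vps-51 at 231.5, syx-5 at 224.6, sec-61.B at 126.2 and vps-72 at 107.5. The last entered by its symbol and is a gene of chromatin remodelling, not of vesicle traffic. Mitochondrial ribosomal proteins had 6 of 19 (31.6%), with mrpl-18 at 123.0, mrpl-12 at 115.4, mrps-7 at 103.0 and mrpl-45 at 79.5. The respiratory chain list had 6 of 17 (35.3%), with atp-1 at 147.3, cox-10 at 86.2, cox-14 at 81.3 and atp-5 at 78.7. It left out genes of the same chain that had peaks, such as ndua-2 (164.3), ndua-8 (129.0), ndub-8 (114.4) and nduc-2 (93.3). Neither its count nor its order thus covers the whole chain. Mitochondrial import had 1 of 3, timm-23 (88.8), and ubiquitin enzymes 2 of 5, ubc-6 (82.9) and uba-2 (66.9).

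Genes of replication and the cell cycle had 5 of 22 (22.7%), with rfc-4, a clamp loader subunit, at 114.4, mdf-2 at 88.9, pola-1 at 63.3 and the pair cyb-1/orc-5 at 61.6. DNA repair genes had 3 of 10, lig-4 (428.3), mre-11 (77.6) and cku-80 (70.5), and histones 3 of 11, with the variant gene htz-1 at 164.5 and his-67/his-68 at 60.8. Proteasome subunits had 2 of 17 (11.8%, 1.46 to 36.4), rpn-3 (122.8) and rpt-2 (91.4). Genes of more restricted expression were few in divergent regions: nuclear hormone receptors had 2 of 13, nhr-47 (182.2) and nhr-142 (77.3), neuropeptides and insulins 1 of 7, ins-14 (62.1), homeobox and bHLH genes 1 of 3, ceh-38 (118.0), and collagens 3 of 4, col-71 (116.2), col-38 (63.0) and col-148 (59.0). No gene had a peak among 11 C-type lectins (0%, up to 28.5), 6 genes of RNA decay (up to 45.9) or 3 of autophagy and the V-ATPase (up to 70.8). Neighbouring genes share a peak, so counts of genes are not independent.

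**Figure D5:**
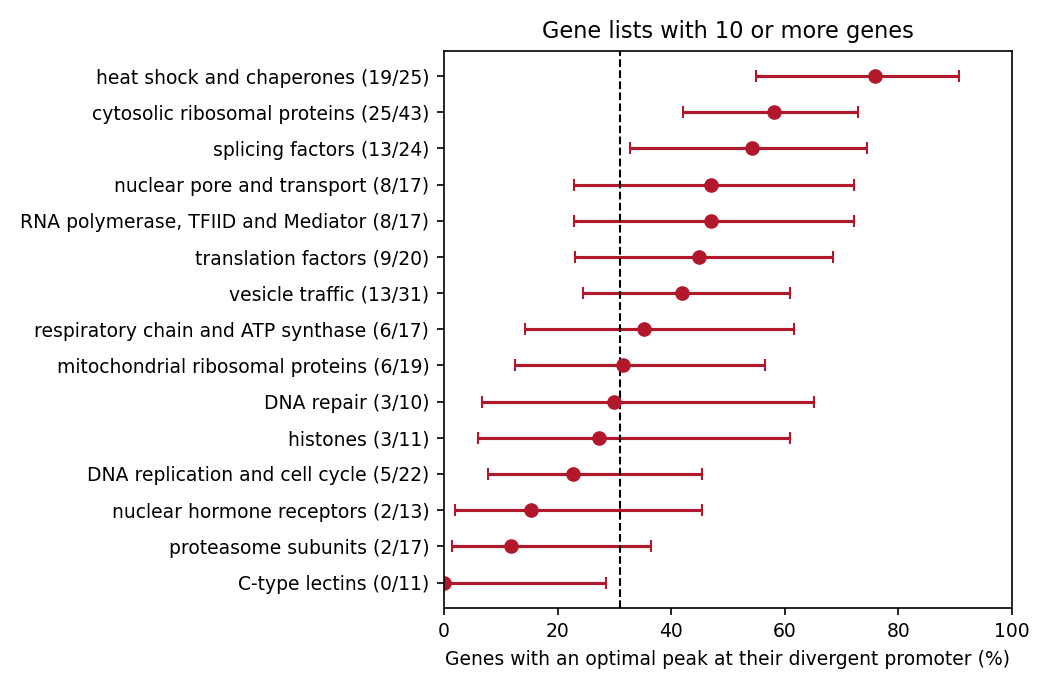
Share of genes with a divergent-promoter region that had a peak (%), by gene list; points give the share, lines the exact 95% interval, and the reference line the share of all such coding genes, 31.0%. Heat shock and chaperone genes stand highest among lists of over 10 genes, at 76.0%.

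In all, 118 of the 278 peaks had a gene of at least 1 list and 15 had list genes on both strands, against 225 and 29 of the 778 other divergent regions. The strongest of those 15 were dnj-19/nhr-47 (182.2), hsp-110/rpn-3 (122.8), eef-1A.1/rfc-4 (114.4), sec-61.A/rps-18 (85.9), exoc-7/tufm-2 (85.4) and rps-14/rpl-36 (85.0). Below them came snx-13/snr-1 (84.2), the paired splicing factor genes rsp-2 and rsp-1 (71.9), vps-25/uba-2 (66.9), col-38/rpl-5 (63.0), orc-5/cyb-1 (61.6), his-67 and his-68 with alg-5 (60.8), hsp-16.2/hsp-16.41 (60.4), rpl-28/mrpl-49 (58.6) and rps-10/rpl-24 (53.5). Among 21 peaks with a ribosomal protein gene on a single strand, the summit was nearer the partner in 15 and nearer the ribosomal protein gene in 6, with medians of 180 bp and 307 bp. For 17 peaks with a chaperone gene it was nearer the partner in 12. Translation factors had 6 of 9 peaks nearer the listed gene, the respiratory chain list 5 of 6 and the vesicle traffic list 8 of 13. The peak of vps-72 was among the 8. Splicing factors had 5 of 11 peaks nearer the listed gene. Genes of RNA polymerase, TFIID and Mediator had 3 of 8, as did nuclear pore and transport genes. No such split at the other divergent regions stands beside these counts, so they describe the peaks only.

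hsp-16.2 and hsp-16.41 are inducible small heat shock protein genes that share a promoter with the heat shock element TTCNNGAA. Their peak, at chrV:1804889-1805284, had 60.4 in the pooled list, 35.1 in replicate 1 and 21.7 in replicate 2, ranks 988 and 2606. It was thus weaker than the median peak. The whole gap, with both end bases, is shown because it held 2 matches to TTCNNGAA, in capitals. Both matches lie more than 50 bp from the summit, outside the window in which the motif was counted above. The gap of E02H1.1/tag-124, a peak of 239.5 with 137.8 and 105.6 in the replicates, is shown as one of short length, with CACGTG in capitals, and was chosen after its letters were seen. Both are on the plus strand of ce11.
hsp-16.2/hsp-16.41 (chrV:1804957-1805178, + strand): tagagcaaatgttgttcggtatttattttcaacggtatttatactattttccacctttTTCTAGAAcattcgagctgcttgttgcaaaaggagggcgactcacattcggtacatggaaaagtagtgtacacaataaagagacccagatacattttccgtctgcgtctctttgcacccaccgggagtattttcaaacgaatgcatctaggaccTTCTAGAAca
E02H1.1/tag-124 (chrII:9591164-9591292, + strand): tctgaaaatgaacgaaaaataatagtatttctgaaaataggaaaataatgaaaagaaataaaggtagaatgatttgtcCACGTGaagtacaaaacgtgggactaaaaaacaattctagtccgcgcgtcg

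Chromosome III carried the most peaks and the highest density, 66 peaks (23.7%) or 4.79 per Mb. Chromosomes I, II, IV and V carried 60, 47, 50 and 55. Of the divergent regions on III and on II 31.3% were in the optimal list, followed by 26.0% on I, 25.0% on IV and 20.8% on V. The middle 50% of each chromosome's length held 162 peaks (58.3%) and 500 of the others (64.3%).

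Noncoding genes, leaving out piRNA genes and pseudogenes, had a 5′ end within the window of 43 peaks (15.5%) and of 80 other regions (10.3%). snoRNA genes were at 9 peaks (3.24%) and 17 others (2.19%). The 9 were the peaks of rpl-15, iff-2, rps-26, rps-12, eef-1G, rps-23, rpl-7A, let-70/klc-1 and rps-10/rpl-24. mir-354 met the rule at rps-20/ekl-4 (151.6) and sls-2.8, an SL2 spliced leader gene, at tim-1/Y75B8A.23 (179.1). tRNA genes met it at 4 peaks (1.44%) and 4 others (0.514%), and microRNA genes at 3 peaks (1.08%) and 3 others (0.386%). For both kinds the intervals of peaks and others overlapped.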

How the data were processed

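Both samples are biological replicates of 1 group, so no comparison between conditions was possible. Per the file notes, regions were called with a control alignment in each replicate and in both together, and the authors deposited the lists on ce10 and ce11. Neither the program that called them nor the cutoff on the irreproducible discovery rate is named in the labels or notes. The authors deposited a signal per region and a −log10 q-value; both served for ranks and description inside a list. No read counts are in them, and the depth is unknown.

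Coordinates are ce11, 1-based, and the ce10 lists were not used. Genes came from Ensembl release 115 for WBcel235, the assembly of ce11: 19985 coding genes, 19965 of them matched to a RefSeq symbol by WormBase identifier. The summit is the region's start plus the offset in its last column; 1212 of 1497 optimal summits lie at the middle of their region. A region overlapped another by at least 1 bp, and a replicate's value is that of its strongest overlapping region, so neighbours can share one. Shares have exact (Clopper-Pearson) 95% intervals and medians intervals from order statistics; no p-values were computed, because regions and genes are not replicates.

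The peaks, 23 gene lists, 12 motifs, thresholds and named genes were chosen with earlier results of these data known, so no pattern those results show is independent support. Named are the 20 strongest peaks, 3 to either side of the threshold, up to 4 genes of each list, pairs with list genes on both strands, extreme gaps and the 3 peaks differing most between replicates each way. Promoter classes, gap lengths, intervals and the motif search were tested on simulated data. Python 3.11.15, numpy 2.4.6, scipy 1.17.1, pandas 2.3.3 and matplotlib 3.10.9 were used.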

Additional observations from a re-analysis of the deposited data

How the results depend on the processing

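With the stronger 50% of the optimal list there were 178 peaks, 16.9% of divergent and 4.34% of single-promoter regions, and 89 list genes. A window of 500 bp upstream gave shares of 33.3% and 10.5% and a median gap of 375 bp. One with nothing downstream gave 29.9% and 8.62%, and every summit between the ends (100%). Transcript 5′ ends gave 6.88% at single promoters. Within 100 bp of the summit, GC was 38.8% and its excess over the other divergent regions fell from 12.4 to 4.98 percentage points, and the shares of peaks were 42.1% for ACAAT, 24.8% for AACAAT, 21.9% for GAGAGA, 55.0% for CANNTG, 10.1% for TGATAA, 15.1% for TATAAA, 25.5% for TTTCAG, 9.71% for GGGCGG and 14.7% for TTCNNGAA. A 50% reciprocal overlap put 54.7% of peaks in both top lists and lists of 3000 regions 93.2%.

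The difference between peaks and other divergent regions changed sign in 3 motifs: AACAAT from −1.78 to 0.879 (stronger 50%), 0.153 (without replicate 1), −5.58 (without replicate 2) and 3.35 percentage points (100 bp), TTCCCGC from 0.282 to −0.129 (stronger 50%), 0.375 (without replicate 1) and −1.03 (without replicate 2), and TTCNNGAA from −2.26 to 0.754 (500 bp) and 2.92 (100 bp); the cause was not tested. The top 1497 regions of a single replicate gave 269 peaks without replicate 1 and 274 without replicate 2. Of these, 29 and 27 had exactly the summit of a peak in the main set, so positions and motifs were mostly read at other summits. How many of the promoters were the same is not given here. Of the main results under all settings, 112 stayed within the interval of the reported share or median, or for counts within 1.5 times, and the 23 given first above did not. Of the differences and list shares, a further 27 values moved by over 1.5 times or out of the interval without a change of sign, mostly differences in motif share. No paired analysis was possible because there is 1 group with no comparison between conditions.

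Depth and peak caller thresholds are unknown, so a region off the optimal list cannot be read as unbound. With 1 group and no untagged sample analysed here, neither a change nor the tag's part in these peaks was tested.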
